A study of Homo sapiens with 12 samples.

Results

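The recurring peaks are 1122 intervals that the authors' lists give as acetylated RNA and that were found again in cells with and without extra NAT10. They were chosen from the 4324 peaks of control replicate 1 as those that shared at least 1 base with a peak of control replicates 2 and 3 and of overexpression replicates 1 and 2. They were chosen by their presence in these 5 lists, so their folds and scores there are given as a description, with no test. The authors' false discovery rate, read as percent, was 100 for all of them in control replicate 1. It was also 100 for most of them in control replicate 3 and in overexpression replicates 1 and 2. The lowest rate of any recurring peak in any list was 29.29, in control replicate 2. Overexpression replicate 3 was not required and held a peak over 210 of them. The 1122 peaks lay on 908 genes, while 10870 genes had a peak in at least 1 list, and the 6 lists held 61804 peaks in all.

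The samples came from HaCaT, a human keratinocyte cell line. Control cells carried an empty vector, and the other cells received plasmids for NAT10 overexpression, with 3 replicates of each. Acetylated RNA was pulled down (IP) beside an input library of each replicate, 12 libraries in all, and the authors deposited 1 peak list per replicate, with GRCh38 as the build in the submitters' processing notes. The labels do not say if replicates came from different cultures, and differences between lists may be technical. The lists give no read counts, so depth is unknown.

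NAT10 transfers an acetyl group to cytidine in RNA, which gives N4-acetylcytidine (ac4C). The mark is long known in transfer RNA and in the RNA of the small ribosomal subunit, where NAT10 works with adaptor proteins or guide RNAs, and it has also been described in messenger RNA, where it is linked to stability and translation. An antibody pull-down finds RNA fragments rather than single bases. A peak is therefore an interval with more IP than background reads, and its fold is the ratio of IP to background as the authors' caller gave it.

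Many recurring peaks lay over the start of a gene. For the 6 with the highest folds that did so, 100 bases around the start are shown, read 5′ to 3′ on the strand of the gene, because they show how far each peak reached before the start; at RNF187 the peak filled the window and went on. The first 70 bases lie before the annotated start and the last 30 after it, and capitals mark the bases inside the peak of control replicate 1. Sequences are from RefSeq, GRCh38.p14.
SHF, chr15:45201087-45201186, minus strand: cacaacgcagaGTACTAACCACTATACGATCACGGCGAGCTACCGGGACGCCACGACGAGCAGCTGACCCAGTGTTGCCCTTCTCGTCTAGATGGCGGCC
SAPCD2, chr9:137070528-137070627, minus strand: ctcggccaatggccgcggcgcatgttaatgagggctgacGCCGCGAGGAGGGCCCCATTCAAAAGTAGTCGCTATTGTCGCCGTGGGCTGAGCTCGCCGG
RNF187, chr1:228487312-228487411, plus strand: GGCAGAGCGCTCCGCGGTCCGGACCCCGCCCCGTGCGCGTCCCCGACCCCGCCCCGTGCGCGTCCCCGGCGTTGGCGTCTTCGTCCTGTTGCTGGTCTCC
LMNB2, chr19:2456930-2457029, minus strand: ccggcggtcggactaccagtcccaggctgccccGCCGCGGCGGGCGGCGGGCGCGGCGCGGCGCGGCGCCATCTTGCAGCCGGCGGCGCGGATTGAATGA
GNB1, chr1:1891058-1891157, minus strand: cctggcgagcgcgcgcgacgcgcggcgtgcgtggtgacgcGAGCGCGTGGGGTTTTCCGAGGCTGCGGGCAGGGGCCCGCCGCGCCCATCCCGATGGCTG
PTPRF, chr1:43530813-43530912, plus strand: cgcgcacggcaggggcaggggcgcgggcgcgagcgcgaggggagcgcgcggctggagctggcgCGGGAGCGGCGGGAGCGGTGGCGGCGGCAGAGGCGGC
The peaks of SHF and RNF187 covered 89 and 100 of these 100 bases, and that of PTPRF covered 37. All 6 peaks reached past the annotated start into the bases before it. The windows were rich in G and C, from 60% at SHF to 86% at PTPRF.

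A few recurring peaks held a whole small RNA gene. A pair of microRNA hairpins is shown here because each lies entirely inside a recurring peak of another gene, with capitals for the mature microRNA.
MIR4485, chr11:10508270-10508326, minus strand: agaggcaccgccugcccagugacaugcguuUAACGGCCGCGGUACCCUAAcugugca
MIR4426, chr1:192716328-192716390, plus strand: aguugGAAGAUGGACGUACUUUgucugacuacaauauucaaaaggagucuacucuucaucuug
MIR4485 lies in MTRNR2L8, a nuclear copy of mitochondrial ribosomal RNA, and MIR4426 in AL136454.1. The folds of these peaks follow those of the strongest ones.

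The strongest recurring peaks were not the same kind of RNA. The first by median fold over the 5 required lists was assigned to ERCC1, a subunit of a DNA repair nuclease, on chromosome 19 from 45478736 to 45478828. Its folds in the controls were 554, 511 and 822, in the order of the replicate numbers, and those in the overexpression lists were 134, 462 and 539. The interval lies 27189 bases from the nearest annotated ERCC1 start and outside the RefSeq span of that gene, so the gene name is the authors' assignment only. Overexpression replicate 1 was the low list, and the groups overlapped.

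Several of the strongest peaks belonged to copies of noncoding RNA. MTRNR2L12, a nuclear copy of mitochondrial ribosomal RNA, had folds of 517, 204 and 269.77 in controls and 71.1, 280.49 and 104 in overexpression lists. MTRNR2L8, another such copy, had 432, 10.4 and 156 in controls and 6.57, 514 and 10.2 in overexpression lists. Both peaks were 994 bases long, and their reads cannot be told apart from those of near-identical copies. No recurring peak varied more between the required lists than that of MTRNR2L8, with a 78.2-fold range, while its MIR4485 hairpin of 57 bases lay inside the peak whole.

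SHF, an adaptor protein gene, had folds of 208, 248 and 191 in controls and 20.55, 158 and 134 in overexpression lists. All 3 control values were above all 3 overexpression values. The peak, on chromosome 15 from 45200988 to 45201175, covered the gene start shown above and 25 of the 72 bases of a histidine transfer RNA gene, TRH-GTG1-9.

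Protein-coding genes made up the rest of the strongest. SAPCD2, a regulator of spindle orientation, had 37.3, 39.98 and 61.4 in controls and 52.4, 62.03 and 18.6 in overexpression lists, and only overexpression replicate 3 stood below the others. RNF187, a ubiquitin ligase, had 33.8, 20.7 and 41.5 in controls and 45.96, 59.3 and 7.20 in overexpression lists. Its 2 required overexpression folds were above all controls, while overexpression replicate 3 was the lowest of the 6.

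LMNB2, which encodes a B-type lamin of the nuclear envelope, had 35.4, 41.4 and 55.4 in controls and 21.6 and 46.9 in overexpression replicates 1 and 2. GNB1, the beta subunit of heterotrimeric G proteins, had 37.3, 60.03 and 71.3 in controls and 40.01 and 40.9 in overexpression replicates 1 and 2. In both genes the groups overlapped and overexpression replicate 3 held no peak. BASP1, a membrane-bound signalling protein, had 34.6, 36.01 and 38.4 in controls and 16.5 and 21.6 in overexpression replicates 1 and 2, which did not overlap. DGAT1, an enzyme of triglyceride synthesis, ranged from 11.6 in control replicate 2 to 57.1 in control replicate 1, with all 3 overexpression folds (44.9, 30.1 and 17.1) between these.

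**Figure D1:**
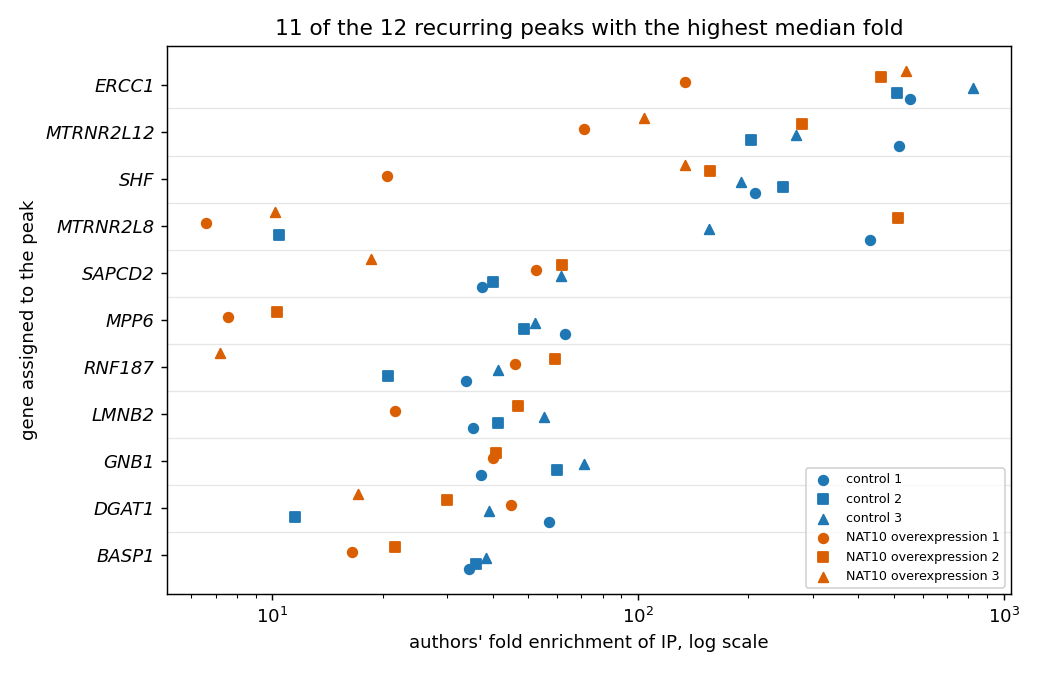
Authors' fold enrichment on a log axis for 11 of the 12 recurring peaks with the highest median fold, with 1 symbol per list: blue for control replicates 1 to 3 and orange for overexpression replicates 1 to 3. A missing symbol means that overexpression replicate 3 held no overlapping peak; MPP6 is the gene whose 3 control folds (48.7 to 63.2) stood farthest above its overexpression folds of 7.54 and 10.3.

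Small RNA genes were found under 12 of the 1122 recurring peaks (1.07%) and under 15 of the 3202 other peaks of control replicate 1 (0.468%). Recurring peaks were longer (median 307.5 against 211 bases), and a longer interval covers a small gene more easily, so these shares are not like for like. Of the 12, 11 held the small gene whole. The peak assigned to WDR74, a ribosome assembly factor, ended at the same base as RNU2-2, a gene of the spliceosomal U2 RNA, and held all of its 191 bases (chromosome 11, 62841619 to 62841809). Its folds were 36.4, 26.3 and 46.7 in controls and 10.1, 20.5 and 17.5 in overexpression lists, with no overlap between groups. A peak on PLCG2, a phospholipase gene, held RN7SKP176, a copy of the transcription regulator RNA 7SK, and ranged from 7.71 in control replicate 2 to 109 in control replicate 1.

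Most of the other small genes under recurring peaks were microRNA hairpins. The peak with MIR4426, shown above, had folds of 17.2, 24.35 and 36.3 in controls and 10.03 and 8.82 in overexpression replicates 1 and 2. Here the groups did not overlap. The peak with MIR6084, on PINK1, a kinase of mitochondrial quality control, had 8.67, 16.1 and 20.2 in controls and 36.85 and 26.8 in overexpression replicates 1 and 2, the opposite order. On RBMS1, an RNA-binding protein gene, the peak with MIR4785 ran from 9.01 to 58.2 and the groups overlapped. The lists carry no strand, so a hairpin and its host, and genes on opposite strands such as MIR762 and BCL7C, cannot be told apart.

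Recurring peaks were often at or near the start of their gene. Of the 896 whose gene has a start in the RefSeq table, 229 covered a start (25.6%, 95% Wilson interval 22.8% to 28.5%), against 499 of 2612 other peaks of control replicate 1 (19.1%, 17.6% to 20.7%). Over all peaks of that list the share was 20.8%. Intervals here and below cover counting error only. Within 200 bases of a start lay 389 of the 896 (43.4%), against 796 of 2612 (30.5%). The table has no starts on chromosome 8, so the 38 recurring peaks there were not counted.

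Along the gene, the peak centre fell in the first 10% of the span for 400 of 896 recurring peaks (44.6%) and for 852 of 2612 others (32.6%). The last 10% held 51 recurring peaks (5.69%) and 306 others (11.7%). In between, each step of 10% held 4.46% to 9.04% of the recurring peaks. Recurring peaks were also longer, with a median of 307.5 bases (quartiles 174 to 532) against 211 for the others. A longer interval meets the overlap rule more easily, so length is not independent of how the peaks were chosen. Among peaks of 308 to 532 bases, 50% (112 of 224) of the recurring and 35.03% (165 of 471) of the others covered a start, and among those of 533 bases or more 28.1% and 18.8%. Among peaks of up to 174 bases the order was the opposite, at 3.40% (8 of 235) and 6.53% (68 of 1041), as it was from 175 to 307 bases, at 22.03% (50 of 227) and 26.5% (204 of 770). These length classes were set after the lengths were seen.

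**Figure D2:**
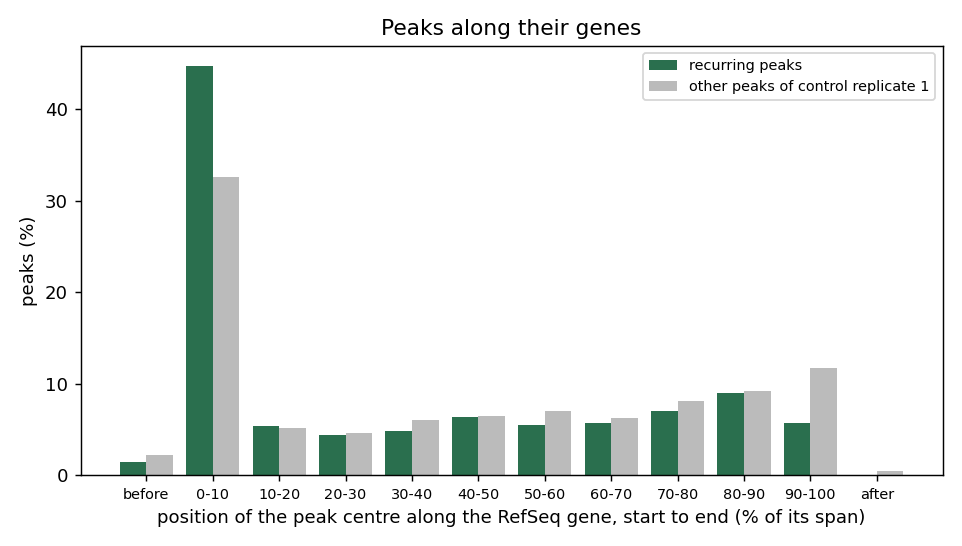
Share of peaks, in percent, by the position of the peak centre from the start to the end of its RefSeq gene, for 896 recurring peaks (green) and 2612 other peaks of control replicate 1 (grey). The first 10% holds 44.6% of the recurring and 32.6% of the other peaks, and the last 10% 5.69% and 11.7%.

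Peaks over a start reached a median of 38 bases before it (quartiles 14 to 89) and 320 bases after it. Of the 229, 23 began exactly at the annotated start and 49 reached 100 bases or more before it. Their median fold over the 5 lists was 10.3, against 8.06 for the 667 recurring peaks elsewhere on such genes. By list, start peaks had medians of 8.42, 11.9 and 12.7 in controls and 9.17 and 9.82 in overexpression replicates 1 and 2, above those of the other recurring peaks in each of the 5 lists (6.91, 9.50, 8.86, 7.76 and 8.21). In overexpression replicate 3, 49 of the 229 had a peak (21.4%, 16.6% to 27.2%) and 119 of the 667 (17.8%, 15.1% to 20.9%), and these intervals overlap.

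Values by list are given for 4 of the start peaks. PTPRF, a receptor-type tyrosine phosphatase, had folds of 18.9, 32.3 and 29.7 in controls and 20.7, 48.8 and 8.57 in overexpression lists. E2F1, a transcription factor of the cell cycle, had 24, 6.02 and 12.5 in controls and 24.6, 38.4 and 17.8 in overexpression lists, so that control replicates 2 and 3 were lowest. KDM1A, a histone demethylase, had 18.5, 22.5 and 47.8 in controls and 26.1 and 15.05 in overexpression replicates 1 and 2. FBL, the methyltransferase of nucleolar box C/D RNA-protein complexes, ran from 5.38 in control replicate 2 to 31.03 in control replicate 3. The groups overlapped over the available lists in these 4 genes, although both required overexpression folds of E2F1 were above its 3 control folds.

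The bases just after the covered starts were rich in G and C, as were those under other peaks. Over the first 50 transcribed bases, the median GC content was 74% at the 229 starts under a recurring peak, 72% at the 499 starts under other peaks of control replicate 1 and 60% over all 35116 windows of the table. A repeat of cytidines spaced by any 2 bases, CNNCNNCNNCNN, has been described for ac4C peaks. It was found on the strand of the gene in 43.2% of windows at recurring starts (99 of 229), 43.7% at other covered starts (218 of 499) and 25.7% of all windows (9019 of 35116). On the opposite strand the shares were 68.996%, 61.5% and 34.8%. A match is a description of these letters, and GC content differed between the sets in the same order as the share on the opposite strand.

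The list that was not required gave a count independent of how the peaks were chosen. Overexpression replicate 3, the shortest list with 3105 peaks, overlapped 210 of the 1122 recurring peaks (18.7%, 95% Wilson interval 16.5% to 21.1%). It overlapped 10.5% of all peaks of control replicate 1 and 242 of the 3202 others (7.56%, 6.69% to 8.53%). The share went up with the number of other required lists that held the peak. It was 2.48% (16 of 645) for peaks found in none of the 4, 5.23% (41 of 784) in 1, 8.94% (77 of 861) in 2, 11.8% (108 of 912) in 3 and 18.7% in all 4. Because this is 1 list, the intervals do not cover the spread between cultures.

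**Figure D3:**
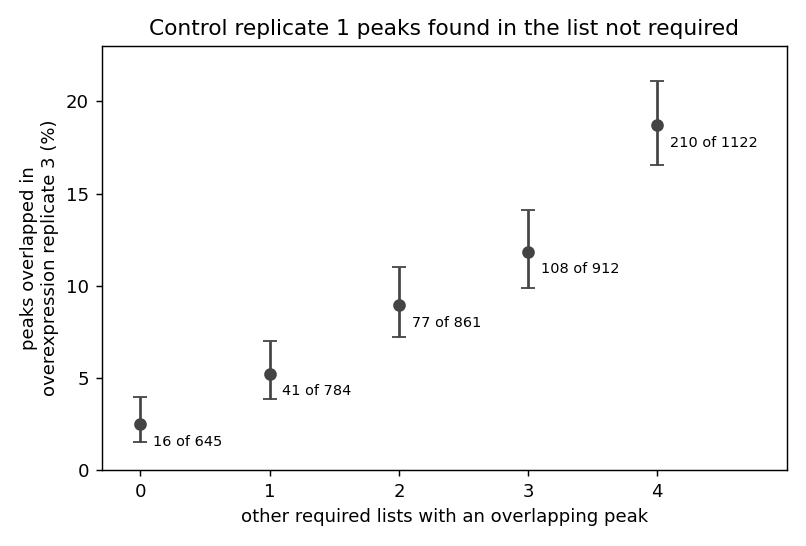
Percent of control replicate 1 peaks with an overlapping peak in overexpression replicate 3, by the number of the 4 other required lists that overlap the peak; bars are 95% Wilson intervals and labels give the counts. The share goes from 2.48% (16 of 645) with no other list to 18.7% (210 of 1122) with all 4.

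Peaks of high fold were found again more often. Of the 281 recurring peaks with the lowest median folds (2.55 to 6.54), 21 had a peak in overexpression replicate 3 (7.47%, 4.94% to 11.2%). Of the 281 with the highest (12.4 and above), 87 did (30.96%, 25.8% to 36.6%). Length moved with it less: the 281 shortest had 13.9% and the 281 longest 20.996%. In each of 4 classes of length the recurring peaks were found more often than the others, at 13.9% against 5.56% up to 174 bases, 16.4% against 7.41% from 175 to 307, 23.6% against 9.71% from 308 to 532 and 20.996% against 10.9% above that. The median fold in overexpression replicate 3 itself was 7.10 for the 210 and 7.20 for its 2891 other peaks. Of its 100 highest peaks, 6 lay on a recurring peak, near the 6.89% of all its peaks that did. In the required lists, by which the peaks were chosen, 21 to 55 of the 100 highest did. The share over all peaks of those lists was 5.96% in control replicate 2, 9.32% to 10.4% in the next 3 and 25.9% in control replicate 1.

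Where a peak recurred, its ends were often at the same base. Both ends were the same in all 5 required lists for 618 of the 1122 peaks (55.1%), and at least 1 end was for 998 (88.9%). The shared part of the 5 peaks had a median of 249 bases, and 11 peaks had no base common to all 5. Of the 210 peaks also in overexpression replicate 3, 67 (31.9%) had the same ends in all 6 lists. The authors' lists do not say how peak ends were set.

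The share of equal ends differed between pairs of lists of the same group. Between control replicates 1 and 3 both ends were the same for 78.3% of the recurring peaks, the highest share of any pair of lists, while control replicate 2 shared 59.8% and 59.3% with these. Across groups, control replicate 3 and overexpression replicate 2 shared 74.5%, more than the 69.8% of overexpression replicates 1 and 2. Pairs with overexpression replicate 3, over its 210 peaks, had 33.3% to 39.05%. The mean over pairs was 57.1% within and 57.4% between groups, a difference of −0.285 percentage points (one-sided exact permutation p = 0.5 over the 10 splits of the 6 lists, for which the smallest p is 0.1, so that this design could not have shown a difference at the usual threshold). Pairs with overexpression replicate 3 enter this mean over another set of peaks than the rest. All the peaks were chosen by overlap of these same intervals, so no conclusion is drawn from the difference or its p.

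**Figure D4:**
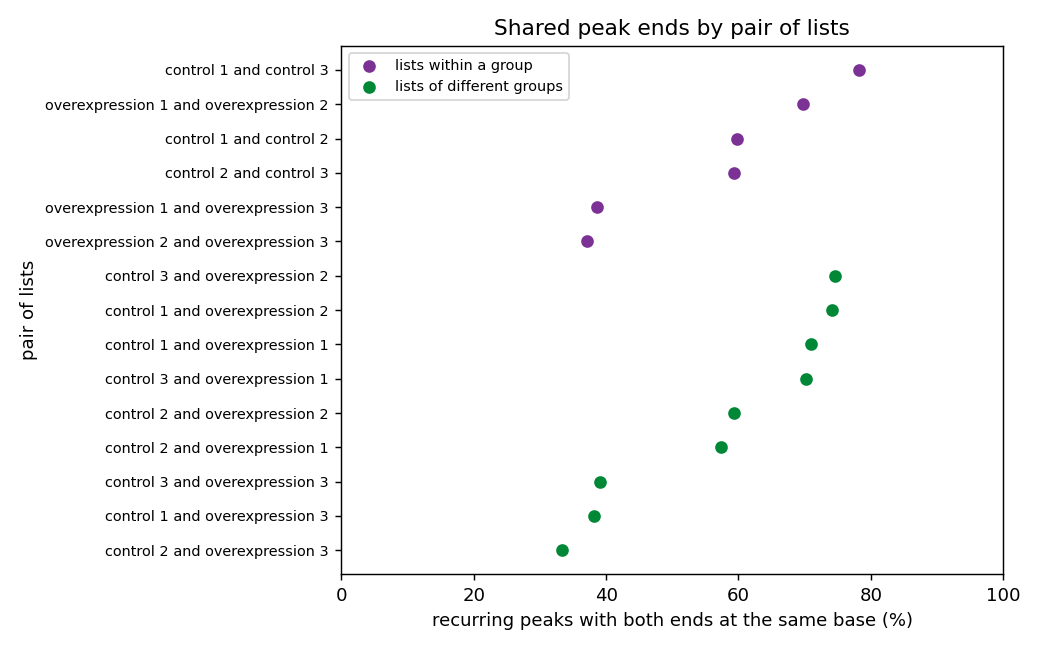
Percent of recurring peaks with both ends at the same base, for each of the 15 pairs of lists, purple for lists of 1 group and green for lists of different groups. Pairs within a group run from 37.1% to 78.3% and pairs between groups from 33.3% to 74.5%, and the lowest 5 all include overexpression replicate 3.

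Folds of the recurring peaks varied between lists of the same group. Medians over the 1122 peaks were 7.47, 10.1 and 9.715 in the 3 control lists. Those of overexpression replicates 1 and 2, 8.185 and 8.755, lay inside this range. For a single peak the highest of the 5 folds was a median of 2.42 times the lowest (quartiles 1.905 to 3.25). In 340 peaks (30.3%) this ratio was under 2, and in 91 (8.11%) it was over 5. Control replicate 2 held the highest of the 5 folds at 379 peaks and control replicate 1 the lowest at 362.

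Ranks of fold across the recurring peaks are a description only, since all points share their libraries. Spearman's rho over the 1122 peaks was 0.708 between control replicates 1 and 3 and 0.613 between overexpression replicates 1 and 2. It ran from 0.388 to 0.519 over the 6 pairs across groups without overexpression replicate 3, and control replicate 2 had 0.496 and 0.477 with its own group.

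Both overexpression folds were above all 3 control folds at 117 of the 1122 peaks (10.4%) and below them at 188 (16.8%). With all 6 lists, among the 210 peaks, the 3 overexpression folds were above the 3 control folds at 7 (3.33%) and below them at 20 (9.52%). With so few folds per group, many peaks would show such an order even if the groups did not differ. That groups did not overlap at a gene, here or elsewhere in the text, therefore describes the values of that peak only. The peaks were chosen by presence in these lists and no test of a single peak was made, and of the required lists control replicate 2, with most peaks, most often held the highest fold. The genes named next were taken as extremes of this order.

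MPP6, a membrane scaffold gene that RefSeq calls PALS2, had folds of 63.2, 48.7 and 52.1 in controls and 7.54 and 10.3 in overexpression replicates 1 and 2. NOTCH2, a receptor of cell-to-cell signalling, had 23.9, 17.9 and 21.9 in controls and 7.26 and 5.97 in overexpression replicates 1 and 2. Its peak lay 36 bases from a gene start. ARGLU1, a splicing and transcription cofactor, had 13.2, 13.9 and 21.2 in controls and 3.95 and 4.03 in overexpression replicates 1 and 2. COLGALT1, which adds galactose to collagen, had 15.3, 18.6 and 17.8 in controls and 6.24 and 6.36 in overexpression replicates 1 and 2. The lowest control fold was thus more than 2 times the highest overexpression fold in these genes, and none of their peaks was found in overexpression replicate 3.

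In the opposite direction stood GIT1, a scaffold of focal adhesions and small GTPases, with 3.58, 7.24 and 8.29 in controls and 17.3, 40.1 and 9.27 in overexpression lists. All 3 overexpression folds were higher, that of replicate 3 by little. CEP164, a protein of the centriole appendages that anchor cilia, had 6.74, 4.78 and 5.80 in controls and 17.6 and 18.97 in overexpression replicates 1 and 2. CHKA, the first kinase of phosphatidylcholine synthesis, had 7.80, 8.11 and 8.70 in controls and 19.45 and 17.3 in overexpression replicates 1 and 2. A peak of COL4A2, a collagen chain of basement membranes, had 3.75, 4.55 and 4.36 in controls and 8.61 and 9.01 in overexpression replicates 1 and 2. KIAA0556 (KATNIP in RefSeq) and GOLGA3, a Golgi protein gene, completed the 6.

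Of the 20 peaks with all 3 controls higher in 6 lists, those on MAD1L1 and CLTB had the widest gap, and these genes were named after their values were seen. The MAD1L1 peak, on a gene of the spindle checkpoint, had 13.2, 11.02 and 17.7 in controls and 3.33, 7.24 and 6.62 in overexpression lists. CLTB, a clathrin light chain gene, had 35.7, 19.45 and 46.7 in controls and 12.2, 13.6 and 10.25 in overexpression lists, over its gene start. SIRT1, a deacetylase gene, had 20.3, 22.7 and 29.96 in controls and 6.75, 10.3 and 16.2 in overexpression lists. The 7 in the other direction were on ANKS6, PQLC1, PPP1R12C, CCDC85C, AXIN1, GIT1 and SLC25A28. ANKS6, a gene of the cilium, had 14.8, 13.6 and 10.04 in controls and 44.7, 20.4 and 18.5 in overexpression lists, 16 bases from a start.

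Most genes held 1 recurring peak (765 of 908), 101 held 2 and 42 held 3 or more. MAD1L1 held 7 over 289 kb of chromosome 7, with median folds of 6.24 to 19.85, and 2 of them were in overexpression replicate 3.

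A further 6 genes held 5 recurring peaks each. SMARCA4, the ATPase of SWI/SNF chromatin remodelling, had median folds of 3.17 to 10.4 over 72.5 kb, and none of its peaks was in overexpression replicate 3. TNIP1, an inhibitor of NF-kappa-B signalling, had the narrowest range, 4.45 to 6.65. HDGFL2, a histone-binding protein gene, had its 5 within 12.99 kb with median folds of 5.74 to 15.6. TNRC18 had 8.17 to 15.2, RRBP1, a ribosome-binding protein of the endoplasmic reticulum, 4.46 to 13.4, and TRIOBP, which bundles actin, 7.13 to 13.8. One start peak each was found on RRBP1, TNIP1 and TRIOBP.

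Among the gene lists in the plot of shares by gene list, those of chromatin modifiers and splicing had the highest shares of genes with a recurring peak. Over all 10870 genes with a peak the share with a recurring peak was 8.35%. Genes with a recurring peak had a median of 12 peaks summed over the 6 lists, against 4 over all genes with a peak, and the same median is given for some of the gene lists. Genes were counted, and no test was made of a list.

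Of 55 chromatin modifier genes with a peak, 21 held a recurring one (38.2%, median of 13 peaks per gene), in 38 peaks with a median fold of 8.975, against 8.745 for all recurring peaks. CHD3, a chromatin remodeller, had 35.4, 39.06 and 26.4 in controls and 14.5 and 19.8 in overexpression replicates 1 and 2. ARID1B, a SWI/SNF subunit, had 18.5, 51.9 and 27.3 in controls and 7.80 and 14.8 in overexpression replicates 1 and 2. The groups did not overlap at CHD3 or ARID1B. Of the 38 peaks, 1 was in overexpression replicate 3, against 18.7% (210 of 1122) of all recurring peaks, and this difference was not tested.

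Of 24 splicing genes with a peak, 9 held a recurring one (37.5%, median of 5 peaks per gene). SRRM2, a scaffold of nuclear speckles, had 23.3, 16.6 and 22.7 in controls and 26.3, 33.3 and 5.44 in overexpression lists, over its start. HNRNPL, a splicing regulator, had 12.4, 14.2 and 14.6 in controls and 7.08 and 18.8 in overexpression replicates 1 and 2. The other 7 were HNRNPM, PRPF6, RBM25, SF3B2, SNRNP200, SRSF11 and SRSF4. The median fold of the 14 splicing peaks was 6.11, below that of all recurring peaks.

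Actin and motor genes held recurring peaks in 11 of 31 (35.5%, median of 19 peaks per gene). MACF1, a linker of actin and microtubules, had 18.7, 20.7 and 26.8 in controls and 25.4 and 40.75 in overexpression replicates 1 and 2. MYO5B, a vesicle motor, had 12.4, 18.99 and 14.2 in controls and 33.2 and 26.97 in overexpression replicates 1 and 2, with no overlap. MYH9, the main nonmuscle myosin heavy chain, had 9.65, 9.89 and 12.5 in controls and 12.7 and 14 in overexpression replicates 1 and 2, also with no overlap. Of the 19 peaks, 0 were in overexpression replicate 3, against 18.7% of all recurring peaks.

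Transcription machinery genes held recurring peaks in 7 of 28 (25%) and the very large ubiquitin ligases in 6 of 20 (30%). CTDP1, a phosphatase of RNA polymerase II, ranged from 6.84 in overexpression replicate 2 to 71.6 in control replicate 2. UBR4 had 4.65, 9.67 and 4.71 in controls and 12.3 and 8.18 in overexpression replicates 1 and 2. In signalling lists, 7 of 33 Notch and Wnt genes, 5 of 27 PI3K, AKT and mTOR genes and 5 of 34 MAPK and EGFR genes held one. AKT1, a survival kinase, had 9.86, 15.7 and 15.8 in controls and 16.7, 18.5 and 12.5 in overexpression lists. MAP2K2, a kinase that activates ERK, had 16.02, 17.45 and 26.4 in controls and 13.5 and 13.7 in overexpression replicates 1 and 2. In MAP2K2 the groups did not overlap and in AKT1 they did.

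Among keratinocyte genes, 6 of 26 desmosome and junction genes (23.1%), 3 of 16 basal and hemidesmosome genes (18.75%) and 2 of 18 epidermal differentiation genes (11.1%) held a recurring peak. COL17A1, a collagen of hemidesmosomes, had 6.93, 12.6 and 10.6 in controls and 12.6 and 17.6 in overexpression replicates 1 and 2. PLEC, which ties keratin filaments to hemidesmosomes, had 5.55, 20.8 and 13.9 in controls and 22.7 and 14.4 in overexpression replicates 1 and 2. EVPL and PPL, the plakins of the cornified envelope, were the differentiation genes. Control replicate 1 gave the lowest fold of the 5 at the strongest recurring peak of each of COL17A1, PLEC, EVPL and PPL. No keratin gene held one, although 23 had a peak in some list, and none of 18 activated keratinocyte and inflammation genes did. These 2 lists had medians of 2 and 3 peaks per gene. Of the markers of other cells with a peak in any list, none held a recurring peak (3 melanocyte genes, 2 fibroblast, 3 endothelial and 2 immune ones). For lists this short a count of 0 is little below the 8.35% of all genes, so nothing on cell identity is read from these counts.

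RNA-modifying enzymes held one in 5 of 29 genes (17.2%, median of 5 peaks per gene). PUS1, a pseudouridine synthase, was even across lists, with 23.1, 16.01 and 17.2 in controls and 18.3 and 17.9 in overexpression replicates 1 and 2. ZC3H13, a factor of the m6A writer complex, was not, with 78.95, 18.2 and 35.8 in controls and 17.4 and 13.2 in overexpression replicates 1 and 2. VIRMA, another part of that complex, YTHDF3, a reader of m6A, and TRMT61A, a transfer RNA methyltransferase, were the others. NAT10 itself held 0 recurring peaks. Ribosome biogenesis had 4 of 33 genes (12.1%), among them TCOF1, a factor of ribosomal DNA transcription, at 5.52, 6, 6.93, 7.26 and 6.84 in the 5 lists.

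No recurring peak was found on any of the 18 oxidative phosphorylation genes, 12 cytosolic ribosomal protein genes and 23 p53 and apoptosis genes that had a peak in some list. These genes carried few peaks, with medians of 2, 1 and 2 per gene, and at lists this short a count of 0 is little below the 8.35% of all genes. Zinc finger genes named ZNF, with a median of 3, held one in 13 of 358 (3.63%) and solute carriers in 10 of 198 (5.05%), among them SLC7A5, a leucine transporter, with 8.16, 11.4 and 13.3 in controls and 12.55 and 13.04 in overexpression replicates 1 and 2.

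**Figure D5:**
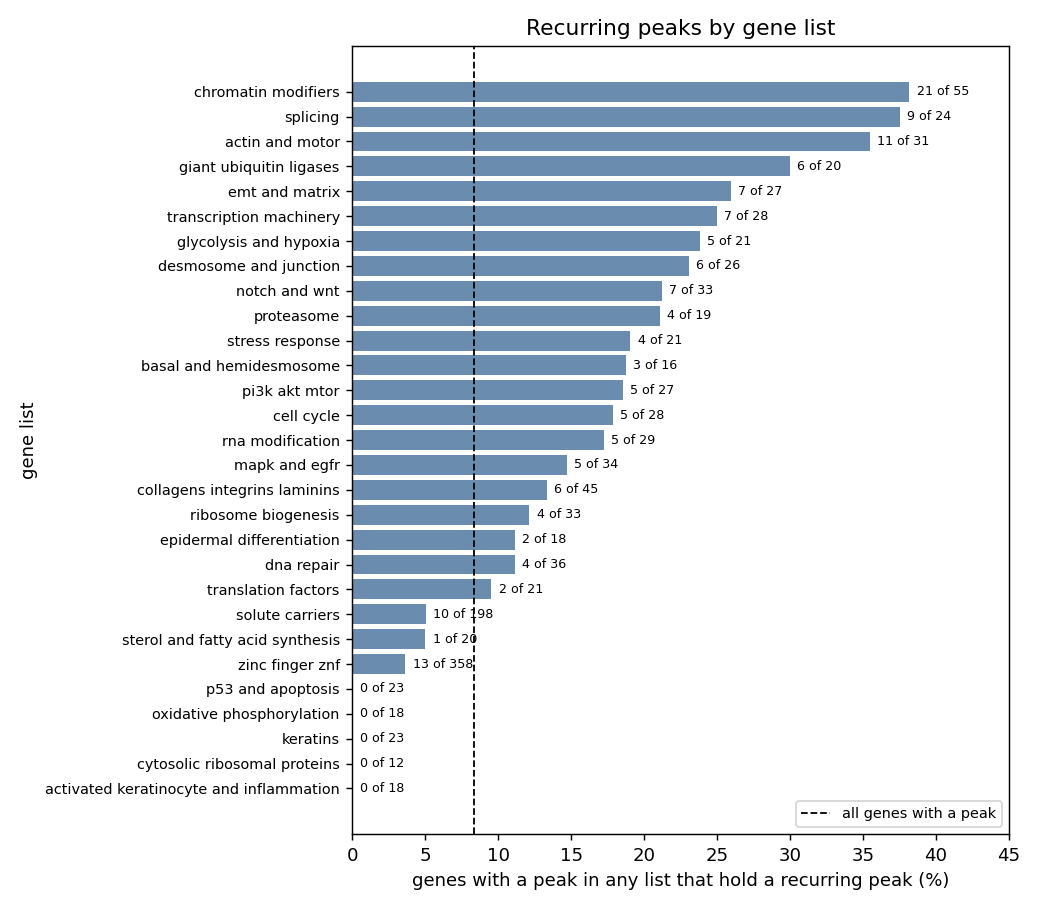
Percent of the genes with a peak in any list that hold a recurring peak, for each gene list with at least 10 such genes; labels give the counts and the dashed line the share over all genes (8.35%). Chromatin modifiers (38.2%) and splicing (37.5%) stand at the top, and 5 lists, among them oxidative phosphorylation and the keratins, are at 0.

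Recurring peaks were unevenly spread over chromosomes. Chromosome 19 held 139 of them (12.4%), against 9.60% of all peaks of control replicate 1 and 8.30% of the peaks of all lists. Of the control replicate 1 peaks on a chromosome, 35.3% recurred on chromosome 20 and 33.5% on chromosome 19, but 12.6% on chromosome 4 and 16.7% on X.

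Some recurring peaks were long. Those of 1000 bases or more were 97 (8.65%), against 113 of the 3202 other peaks (3.53%). Long intervals meet the overlap rule more easily, so this difference is not independent of the choice. EPPK1, a plakin of epithelial filaments, had the longest, 3938 bases, with folds of 7.09, 19.2 and 9.42 in controls and 24.9, 19.6 and 5.56 in overexpression lists. HELZ2 followed with 3712 bases and EVPL with 3689. ANKRD9, MUC4, a membrane mucin, and SNX8, a sorting nexin, had peaks of 3526, 3470 and 3400 bases. None of these 6 had the same ends in all 5 lists.

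The 6 weakest recurring peaks had median folds of 2.55 to 3.29, where the lowest fold that any list holds is 2. SERBP1, an mRNA-binding protein, had 3.97, 2.32 and 5.14 in controls and 2.18 and 2.55 in overexpression replicates 1 and 2. DNMT1, the maintenance DNA methyltransferase, had 3.11, 3.14 and 5 in controls and 4.39 and 3.17 in overexpression replicates 1 and 2. PYGB, TOP1, FKBP8 and a peak of SMARCA4 were the other 4, with medians of 3.11 to 3.29.

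Some peaks barely met the rule. Just inside it were ESRRA and ACYP2, which shared 3 bases with a peak of control replicate 2, ZC3H12C, whose peak was 4 bases long, and MRPL23, which shared 6 bases. Just outside, PGAM5 on chromosome 12 (132710819 to 132711067) lay 14 bases from a peak of overexpression replicate 2, its only missing list. PRNP and ATAD3A lay 30 and 56 bases from a peak of control replicate 2, and ZSWIM6 83 bases from one of overexpression replicate 1. Of the 912 peaks of control replicate 1 that missed 1 list, 376 missed control replicate 2, although that list held most peaks.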

How the data were processed

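Acetylated RNA of HaCaT cells was measured in 6 IP libraries with 6 input libraries. Groups and replicate numbers come from the sample titles. The submitters' processing notes name FastQC, cutadapt 1.9.3, HISAT2 2.0.4 and GRCh38, without their roles. Per the file headers, the authors deposited 1 peak list per replicate with a score (the negative log10 of p times 10), a fold, which is a linear ratio, and a false discovery rate, read as percent because it runs up to 100. It was 100 for every recurring peak of control replicate 1 and for all 210 in overexpression replicate 3. Of the 1122, it was below 100 for 1081 in control replicate 2 and 212 in control replicate 3. In overexpression replicates 1 and 2 it was below 100 for 465 and 402. The lowest rate of any recurring peak was still 29.29 in control replicate 2 and 76.37 in control replicate 3. In overexpression replicates 1 and 2 the lowest was 57.75 and 53.03. The authors' lowest score was 50. Start and end positions and peak lengths were used as deposited, per the file headers, and starts, which count from 0, were raised by 1. Peak names carry the name MACS, its version not given in the sources used here. Empty lines (3 in control replicate 2 and 2 in overexpression replicate 2) were skipped.

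A member's peak in another list was the one with most shared bases. Gene starts are the RefSeq windows of GRCh38.p14, matched by gene identifier. Of 908 genes, 889 were matched and 34 have another symbol there. Overlap of ends was tested by exact permutation, and the overlap code was tested on simulated lists. Members, gene lists and tests were chosen with earlier results of these data known. Named peaks were the 12 highest and 6 lowest by median fold, the 6 longest, the 6 at each end of the group order, genes with 3 or more members (at most 8), up to 4 per gene list, 6 over gene starts and those nearest the rule's limit. Same-numbered lists of the groups were not paired: over 210 peaks their deviations had correlations of −0.0844, −0.251 and −0.156. Python 3 with pandas, numpy and scipy was used. Some genes that the rule names are not reported here.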

Additional observations from a re-analysis of the deposited data

How the results depend on the processing

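The number of recurring peaks was 1122. It was 618 with both ends identical, 600 with a score of at least 100 and 210 with overexpression replicate 3 required as well. Leaving out 1 list gave 1201 to 1718, the highest without control replicate 1. Other settings (50% of each peak shared, a fold of at least 4, another list as anchor, distinct intervals) gave 936 to 1138. The share found in overexpression replicate 3, 18.7%, was 14.9% with 50% of each peak shared, 10.8% with identical ends and 13.5% with a score of at least 100, and 16.3% to 18.4% with 1 list left out. Other settings gave 18.01% to 18.95%. Within minus between groups, the share of identical ends differed by −0.285 percentage points and by −5.20 to 7.48 with 1 list left out, turning positive without overexpression replicates 1 (5.56) or 2 (7.48). With the replicate block, leaving out same-numbered pairs of lists, it was −0.786 (one-sided exact permutation p = 0.7), and no conclusion is drawn from this either. The share at a gene start, 25.6%, was 43.4% within 200 bases. Stricter settings were applied to overexpression replicate 3 as well, so a match there was also harder to reach. With identical ends, the matches were the 67 peaks with the same ends in all 6 lists. Stricter settings thus keep fewer peaks and fewer matches by construction, and the cause of the other moves was not tested. Taking the highest fold among overlapping peaks moved no list's median by more than 0.15. The lists carry no strand, so a same-strand overlap was not run. Depth is unknown and limits every absence of a peak.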
